A study of Homo sapiens with 2 samples.

Results

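Nuclear receptors are transcription factors that small lipid-soluble molecules such as steroids, thyroid hormone, retinoids, bile acids and fatty acids switch on or off, and they were followed here in Huh-7 cells after depletion of DEPDC1. A list of 44 receptor genes was matched to the array by gene symbol, and each gene was represented by its own probe set with the highest mean over both arrays. Of these 44 genes, 38 had a value and 6 had none, among 18417 genes with a value in all. RARA had only a probe set annotated to more than 1 gene, and NR0B1, NR1H2, NR1H4, NR1I2 and NR2F2 were not named for any probe set used here, so these 6 were not analysed here.

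Huh-7 is an established line from a human hepatocellular carcinoma. One culture had been given the control named NC and the other an siRNA against DEPDC1, a gene for a DEP domain protein, and RNA of both was collected 72 h after transfection. Each group held 1 array, so no difference has a replicate check, no test was possible and no p-value is given. The sources used here do not give the siRNA sequence or the kind of control.

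In the liver, nuclear receptors set the output of bile acid, cholesterol, fatty acid and drug metabolism. Most of them bind DNA as pairs, many with a retinoid X receptor as the partner, at sites built from copies of the half-site AGGTCA. Unoccupied receptors often hold corepressors at a gene, and a bound ligand replaces these with coactivators. Orphan receptors are members for which no natural ligand was known when they were found.

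The values are log2 expression, and every difference is siRNA minus NC on that scale. Detection required that at least 1 of the arrays reach 4.66, the median of all deposited values, a limit set by convention rather than from a background measurement. The siRNA target was lower in the siRNA array, with DEPDC1 at 7.82 with NC and 5.15 with the siRNA. The hepatocyte identity of the line was visible in both arrays, since all 11 measured hepatocyte markers were detected, although by measured values 5 of them were lower by 2-fold or more after DEPDC1 siRNA and 1 was higher by that much, with a median difference of -0.71. The lower ones were AFP (3.92-fold), SERPINA1 (3.18-fold), APOB (2.55-fold), TF (2.12-fold) and AHSG, which lay under the threshold with the siRNA and was at least 1.82-fold lower. Of the markers of other cells, 1 of 8 endothelial, 3 of 7 leukocyte, 5 of 10 fibroblast and stellate cell and 4 of 6 cholangiocyte genes were detected. PECAM1, VWF and PTPRC, which define endothelial cells and leukocytes, lay under the threshold in both arrays. Some other markers were higher with the siRNA: LUM, the matrix proteoglycan lumican, by 4.95-fold (7.64 to 9.95), LYZ, the lysozyme of myeloid cells, by 2.30-fold (4.85 to 6.05) and COL1A2, a collagen chain, by 2.10-fold (5.43 to 6.50). The other detected leukocyte markers, CD14 and MARCO, had differences of 0.27 and 0.00. The other detected fibroblast and stellate cell markers, COL1A1, COL3A1 and PDGFRA, had differences of 0.06, -0.04 and 0.09. The 4 detected cholangiocyte markers were all higher, SPP1 by 0.56, KRT19 by 0.52, EPCAM by 0.10 and SOX9 by 0.09, with a median of 0.31. With the mean of its probe sets, EPCAM had a difference of -0.01. CLEC4G, the 1 detected endothelial marker, had a difference of -0.12. The part of these markers in the receptor values was not tested. In bulk RNA, fewer cells of a type and less RNA per cell cannot be told apart.

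Of the 38 measured receptor genes, 22 were detected, each of them with both values above the threshold, and 16 lay under it. None of the 22 differed by 2-fold between the arrays in either direction, where 2.8% of all 11352 detected genes did (0.863% lower and 1.94% higher). At 1.5-fold, a log2 difference of 0.58, 2 receptors were higher (PPARG and THRA) and 2 were lower (RORA and THRB). These 4 are 18.2% of the detected receptors, against 9.77% of all detected genes (6.03% higher and 3.74% lower). The list had no common direction, with 11 receptors higher (49.9% of all detected genes were), 11 lower (48.1% of all detected genes were) and a median difference of 0.02, beside a median of 0.00 over all detected genes. Over all 38 measured receptors the median was -0.02. The median absolute difference was 0.25 for the detected receptors and 0.19 for all detected genes. The shares over all detected genes given here also stand beside the counts of each gene list below.

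**Figure D1:**
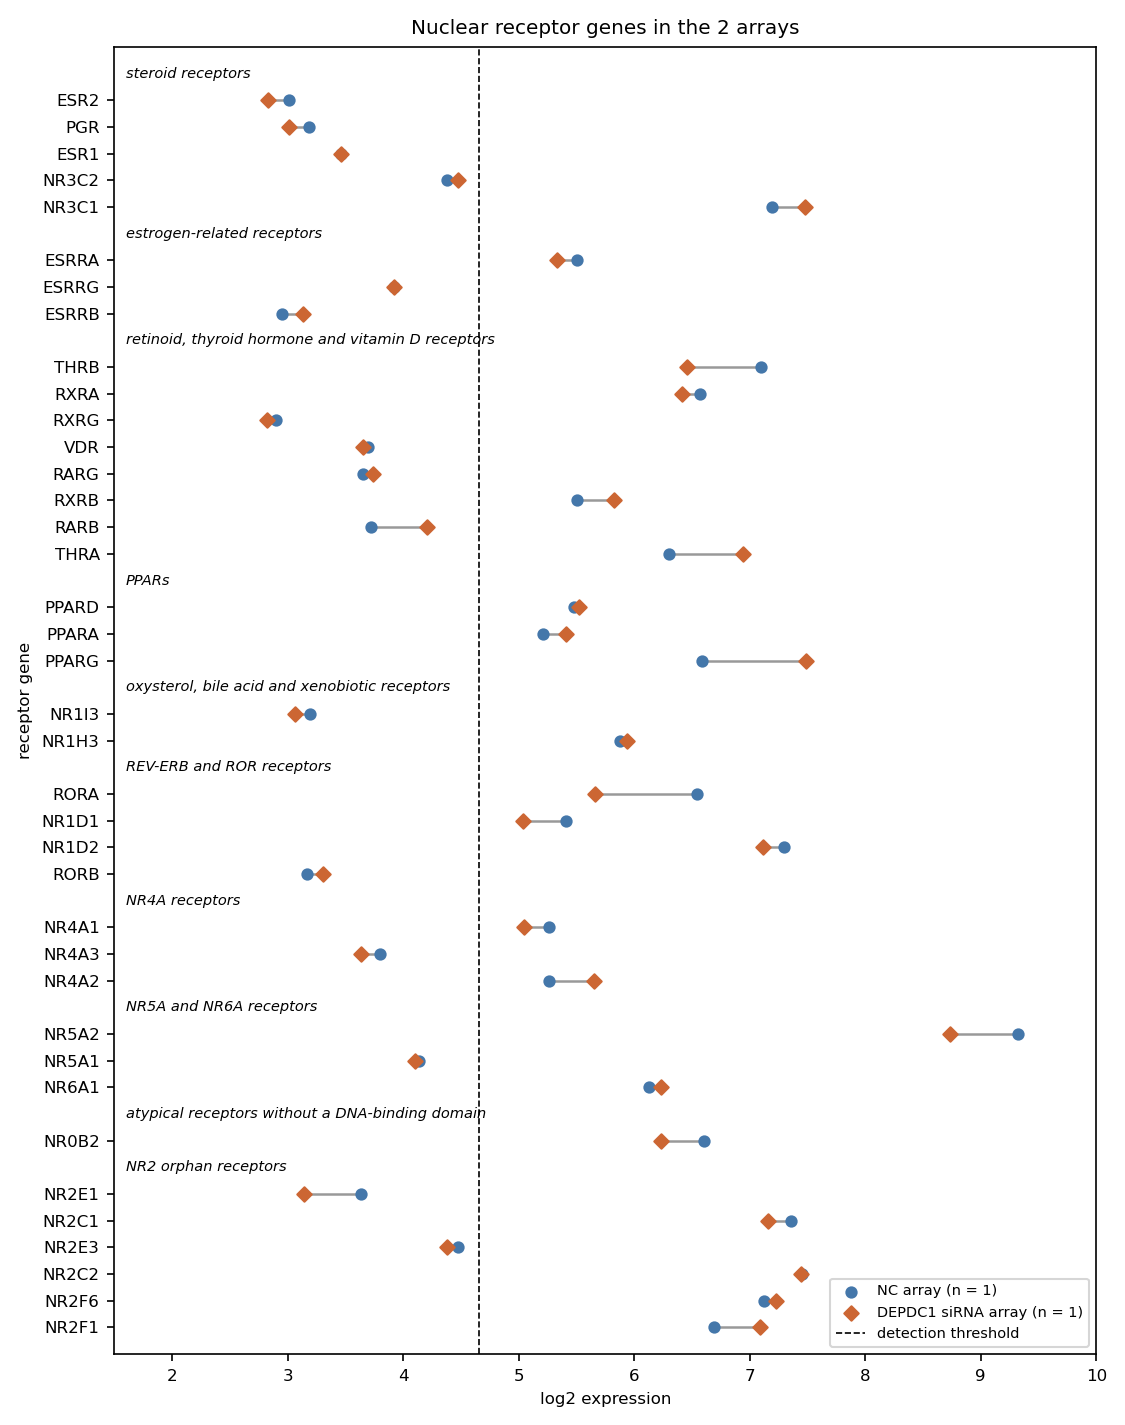
Log2 expression (horizontal axis) of the 38 measured receptor genes, grouped by role, in the NC array (circles) and the DEPDC1 siRNA array (diamonds), with 1 array per group and the detection threshold of 4.66 as a dashed line. The longest lines between the symbols among detected genes belong to PPARG and RORA, and no detected gene crosses the threshold.

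A gauge of measurement noise came from 444 genes with several detected probe sets. The differences of the probe sets of 1 gene spanned a median of 0.09 and a 90th percentile of 0.41. Of the 22 detected receptors, 5 differed by more than that 90th percentile, which is 22.7% against 19.5% of all detected genes. These 5 were PPARG, RORA, THRA, THRB and NR5A2. Probe sets of 1 gene may share probes, and they say nothing of the spread between cultures.

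The thyroid hormone receptors showed opposite differences. THRA, which encodes thyroid hormone receptor alpha, had 6.30 with NC and 6.94 with the siRNA. Its difference of 0.64, or 1.56-fold higher, was reached or passed in size by 8.18% of detected genes. THRB, which encodes the beta receptor that carries most thyroid hormone signalling in liver, had 7.10 with NC and 6.46 with the siRNA. That is a difference of -0.64, or 1.56-fold lower, and 8.27% of detected genes differed at least as much. The difference of THRA exceeded that of THRB by 1.28 on the log2 scale. Of 8 thyroid hormone receptor targets, 5 were detected, with 3 lower, 2 higher and a median of -0.12. CPT1A, the mitochondrial carnitine palmitoyltransferase of the liver, was the 1 member of this list at least 2-fold different (7.14 against 6.07, 2.10-fold lower). ME1, the cytosolic malic enzyme, had a difference of 0.50, FURIN, a protease of the secretory pathway, -0.30, and KLF9, a zinc finger factor, -0.12.

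The 3 peroxisome proliferator-activated receptors, which sense fatty acids, all had the higher value in the siRNA array, but by unequal amounts. PPARG, the receptor that drives fat cell differentiation and lipid storage, had 6.59 with NC and 7.49 with the siRNA. Its difference of 0.90, or 1.87-fold, was the largest increase among the receptors, and 3.73% of detected genes differed at least as much. PPARA, which controls fatty acid oxidation in the liver, had 5.21 with NC and 5.41 with the siRNA, a difference of 0.21. PPARD, the broadly expressed member, had 5.48 and 5.52, a difference of 0.04 that lies within the noise gauge. The difference of PPARG exceeded that of PPARA by 0.70 and that of PPARD by 0.86.

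Targets of PPARA went both ways. Of 24 listed, 21 were measured and 14 detected, with 7 lower, 6 higher and 1 equal and a median of -0.01. CPT1A was the 1 target at least 2-fold different. PLIN2, a coat protein of lipid droplets, was 1.92-fold lower (8.28 with NC and 7.34 with the siRNA). APOA1, the main protein of high-density lipoprotein, was 1.64-fold lower, and ACSL1, an acyl-CoA synthetase, had a difference of -0.41.

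The receptors of the circadian feedback loop were lower where detected. RORA, which activates transcription at sites that the REV-ERB receptors repress, had 6.55 with NC and 5.66 with the siRNA. This difference of -0.88, or 1.84-fold lower, was the largest decrease among the receptors, and 4.0% of detected genes differed at least as much. NR1D1 (REV-ERB alpha) had 5.41 with NC and 5.04 with the siRNA, a difference of -0.38. NR1D2 (REV-ERB beta) had 7.29 and 7.11, a difference of -0.18. RORB, which is known from brain and retina, lay under the threshold with 3.17 and 3.31. Of 18 clock genes, 16 were measured and 13 detected, with 7 lower, 5 higher and 1 equal and a median of -0.03. None of them differed by 2-fold, where 2.8% of all detected genes did. NFIL3, a repressor of clock output, was 1.68-fold lower (7.44 against 6.69), and this was the 1 clock gene past 1.5-fold. CRY1 and CRY2, repressors of the clock, had differences of -0.30 and -0.21. PER1 was at least 1.09-fold lower, since its siRNA value lay under the threshold.

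**Figure D2:**
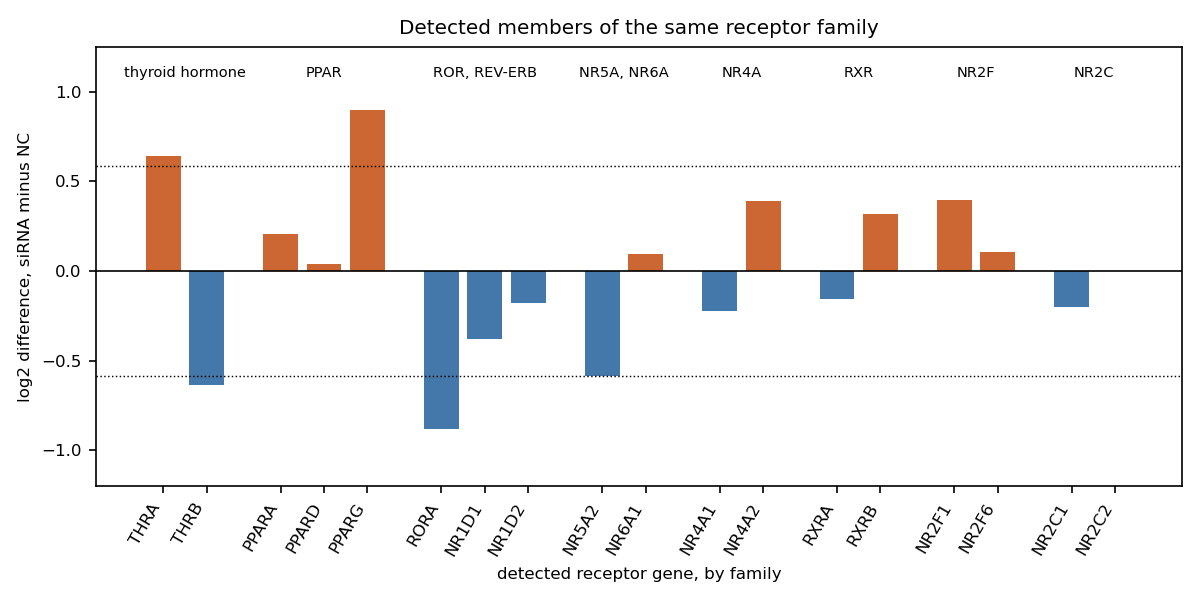
Log2 difference, siRNA minus NC (vertical axis, 1 array per group), of detected receptor genes set beside their relatives, with 1.5-fold marked by dotted lines. THRA (0.64) and THRB (-0.64) point in opposite directions, PPARG (0.90) stands above PPARA and PPARD, and RORA, NR1D1 and NR1D2 all lie below 0.

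Sequences in front of annotated transcription starts were read from RefSeq (GRCh38.p14). Shown are PPARG, THRB and RORA, past the 1.5-fold limit, and NR5A2, just short of it. THRA, also past the limit, is described below without its sequence. The windows run 5′ to 3′ on the gene's strand and end at the base before the start. Capitals mark every match, on either strand, to the nuclear receptor half-site AGGTCA, the E-box CACGTG, the GC box CCGCCC and the TATA motif TATAAA, none of which contains another. PPARG (chr3:12287118-12287367, plus strand) is shown at the outermost of its 6 listed starts, THRB (chr3:24495709-24495958, minus strand) at the outermost of 2, RORA (chr15:60627531-60627780, minus strand) at its 1 listed start and NR5A2 (chr1:200027460-200027709, plus strand) at the first of 2.
PPARG: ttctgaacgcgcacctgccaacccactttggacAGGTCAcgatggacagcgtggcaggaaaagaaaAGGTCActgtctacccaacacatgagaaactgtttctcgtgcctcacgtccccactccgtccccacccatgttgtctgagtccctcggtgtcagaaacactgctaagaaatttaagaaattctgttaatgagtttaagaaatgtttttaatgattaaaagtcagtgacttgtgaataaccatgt
THRB: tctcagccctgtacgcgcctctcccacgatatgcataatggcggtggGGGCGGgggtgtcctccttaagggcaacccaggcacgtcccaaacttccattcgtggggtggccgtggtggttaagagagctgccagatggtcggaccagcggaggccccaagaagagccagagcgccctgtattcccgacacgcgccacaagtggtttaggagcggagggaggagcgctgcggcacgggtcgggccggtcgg
RORA: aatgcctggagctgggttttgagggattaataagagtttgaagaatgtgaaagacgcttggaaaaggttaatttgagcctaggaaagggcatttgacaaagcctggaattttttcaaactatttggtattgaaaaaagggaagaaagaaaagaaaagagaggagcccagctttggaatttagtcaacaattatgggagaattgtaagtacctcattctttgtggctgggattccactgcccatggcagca
NR5A2: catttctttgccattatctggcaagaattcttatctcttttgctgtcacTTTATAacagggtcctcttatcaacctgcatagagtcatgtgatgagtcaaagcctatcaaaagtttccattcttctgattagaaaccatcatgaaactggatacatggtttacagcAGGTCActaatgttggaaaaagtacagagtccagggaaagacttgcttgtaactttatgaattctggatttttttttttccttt

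The PPARG window held 2 copies of AGGTCA, beginning 217 and 184 bases before the start. The NR5A2 window held 1 copy of AGGTCA at 84 bases and 1 TATA motif, on the opposite strand, at 201 bases. The THRB window shown had 1 GC box at 203 bases, and the other THRB window had a GC box at 43 bases and a TATA motif at 182 bases. A pair of overlapping PPARG windows at starts further into the gene held the same AGGTCA, 14 and 24 bases before their starts. In each, a TATA motif on the opposite strand lay beside it. The other 3 PPARG windows held none of the motifs. The second NR5A2 window and the RORA window had no match to any of the 4 motifs. The THRA window (chr17:40062715-40062964, plus strand) held 8 GC box matches, overlapping ones included, and none of the other 3 motifs. In all, 40 of the 44 receptor genes had 94 windows in the table. AGGTCA was in 15 of these 94 windows (16.0%), against 12.1% of all 35116 windows of the same length. CCGCCC was in 47.9% against 42.6%, CACGTG in 6.38% against 6.34% and TATAAA in 8.51% against 10.7%. Among the detected receptors, AGGTCA was found in front of NR1H3, NR5A2 and PPARG, whose differences were 0.06, -0.58 and 0.90. A match describes letters in a window and is no evidence of binding.

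NR5A2 encodes LRH-1, a receptor of liver and pancreas that helps to drive bile acid and cholesterol genes. It had 9.32 with NC and 8.74 with the siRNA. The difference of -0.58 was just short of the 1.5-fold limit, and 9.83% of detected genes differed at least as much. With quantile normalization it was -0.59, past the limit, and the receptors at least 1.5-fold lower were then 3. NR0B2 encodes SHP, a receptor without a DNA-binding domain that represses LRH-1. It had 6.61 with NC and 6.23 with the siRNA, a difference of -0.38. Of the relatives of NR5A2, NR5A1 (SF-1, the receptor of steroid-producing glands) lay under the threshold with 4.14 and 4.11. NR6A1 (GCNF, a germ cell and embryonic repressor) had 6.13 and 6.23, a difference of 0.10.

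The receptor for bile acids itself, NR1H4 (FXR), had no value, but its targets were measured. Of 16 FXR targets, 9 were detected, with 6 lower, 3 higher and a median of -0.57, and 4 of the 9 were at least 2-fold lower by their measured values. Over all detected genes, 48.1% had a lower value and 0.863% were at least 2-fold lower. KNG1, which encodes kininogen, was 4.03-fold lower (8.33 against 6.32). UGT2B4, a glucuronosyltransferase, was 2.79-fold lower (6.63 against 5.15). APOC3, an inhibitor of lipoprotein lipase that FXR is known to repress, was 2.73-fold lower (8.54 against 7.09). BAAT, which conjugates bile acids to glycine and taurine, had 5.56 with NC and only 3.84 with the siRNA, below the threshold, which makes it at least 1.88-fold lower. The targets on the other side, named after their values were seen, were FGF19 (0.33), SDC1 (0.26) and ABCB4, which was at least 1.10-fold higher since its NC value lay under the threshold. In the same array, 9 of the 11 hepatocyte markers were lower, AFP by 3.92-fold and SERPINA1 by 3.18-fold, while TTR was 2.65-fold higher, LUM, LYZ and COL1A2 were higher as given above, and the part of this in the values of the FXR targets was not tested. This list was drawn up with earlier results on KNG1, BAAT, UGT2B4 and APOC3 known, so its direction is no independent evidence. Over all 16 measured targets the median was -0.11, and with detection judged on the mean of both arrays it was -1.01.

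The other receptors for sterols and foreign compounds showed small differences where they had values. NR1H3 (LXR alpha, the oxysterol receptor) had 5.87 with NC and 5.94 with the siRNA, a difference of 0.06. Of 15 LXR targets, 10 were detected, none 2-fold different (2.8% of all detected genes were), with a median of -0.05. The LXR targets with the largest differences were PLTP, a phospholipid transfer protein (0.45), SCD, a fatty acid desaturase (-0.41), ABCA1, a cholesterol exporter (0.28), and APOE (-0.27). NR1I3 (CAR, a drug sensor) lay under the threshold with 3.19 and 3.07. Of 20 targets of CAR and of the related receptor PXR, 10 were detected, with a median of -0.17. Of these 10, 6 were lower (48.1% of all detected genes were) and 4 higher. CYP2B6, a cytochrome P450 that serves as the usual readout of CAR, was 2.01-fold lower (7.46 against 6.45). SULT2A1, a steroid sulfotransferase, had a difference of -0.41 and ABCC3, a bile acid exporter, 0.59. CYP3A5 was at least 1.17-fold higher, its NC value being under the threshold.

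Steroid receptors were mostly under the threshold. NR3C1, the glucocorticoid receptor, was the 1 detected member of this group, with 7.19 with NC and 7.48 with the siRNA, a difference of 0.29. The mineralocorticoid receptor NR3C2 had 4.38 and 4.47, the estrogen receptors ESR1 and ESR2 had 3.46 in both arrays and 3.01 and 2.83, and the progesterone receptor PGR had 3.19 and 3.02. A second probe set of ESR1 differed by -0.23. Of 20 glucocorticoid receptor targets, 15 were detected, with 10 lower and 5 higher, where 48.1% of all detected genes were lower. None was at 2-fold, where 2.8% of all detected genes were, and the median was -0.12. With the threshold at the 75th percentile that median was 0.04, so its sign turned. SGK1, a kinase of ion transport, was 1.98-fold lower (6.22 against 5.24), and BCL6, a repressor, had a difference of -0.47. The metallothioneins MT2A and MT1X, near copies that may cross-hybridise, were 1.88-fold and 1.65-fold higher. Estrogen receptor targets had a median of 0.21 over 10 detected genes, with 6 higher, 3 lower and 1 equal, none of them at 2-fold. Over all 12 measured the median was 0.08. CTSD, a lysosomal protease, had a difference of 0.55 and CCND1, cyclin D1, -0.54.

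Estrogen-related receptors regulate mitochondrial genes and need no estrogen. ESRRA had 5.50 with NC and 5.33 with the siRNA, a difference of -0.17. ESRRB (2.95 and 3.14) and ESRRG (3.92 in both arrays) were under the threshold. ESR1 and ESRRG had exactly the same deposited value in both arrays, as did 5.83% of all probe sets, and the sources used here do not say how such ties arose.

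Retinoid X receptors, the shared partners, split in direction. RXRA had 6.57 with NC and 6.41 with the siRNA, a difference of -0.16. RXRB had 5.51 and 5.82, a difference of 0.32, and its other 2 probe sets, which hold identical values, gave 0.37. RXRG was under the threshold with 2.90 and 2.83. Among the retinoic acid receptors, RARG (3.65 and 3.74) and RARB (3.72 and 4.21) lay under the threshold. RARB, itself a target of retinoic acid, had the larger difference of both, 0.49. Of 15 retinoic acid targets, 7 were detected, with 2 lower, 5 higher (49.9% of all detected genes were) and a median of 0.10. GPRC5A, an orphan receptor of the cell surface that retinoic acid induces, was 7.22-fold higher (4.70 against 7.55). CYP26B1, which breaks retinoic acid down, had a difference of 0.51 and DHRS3, which reduces retinaldehyde, -0.52. The vitamin D receptor VDR was under the threshold with 3.69 and 3.65. Of 8 of its targets, 4 were detected, with 1 lower, 3 higher and a median of 0.33, but over all 8 measured the median was -0.04. IGFBP3, a carrier of insulin-like growth factors, was 1.51-fold higher (7.64 against 8.24). THBD, the thrombin receptor thrombomodulin, was at least 1.18-fold higher, and CAMP, an antimicrobial peptide, at least 1.15-fold lower.

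**Figure D3:**
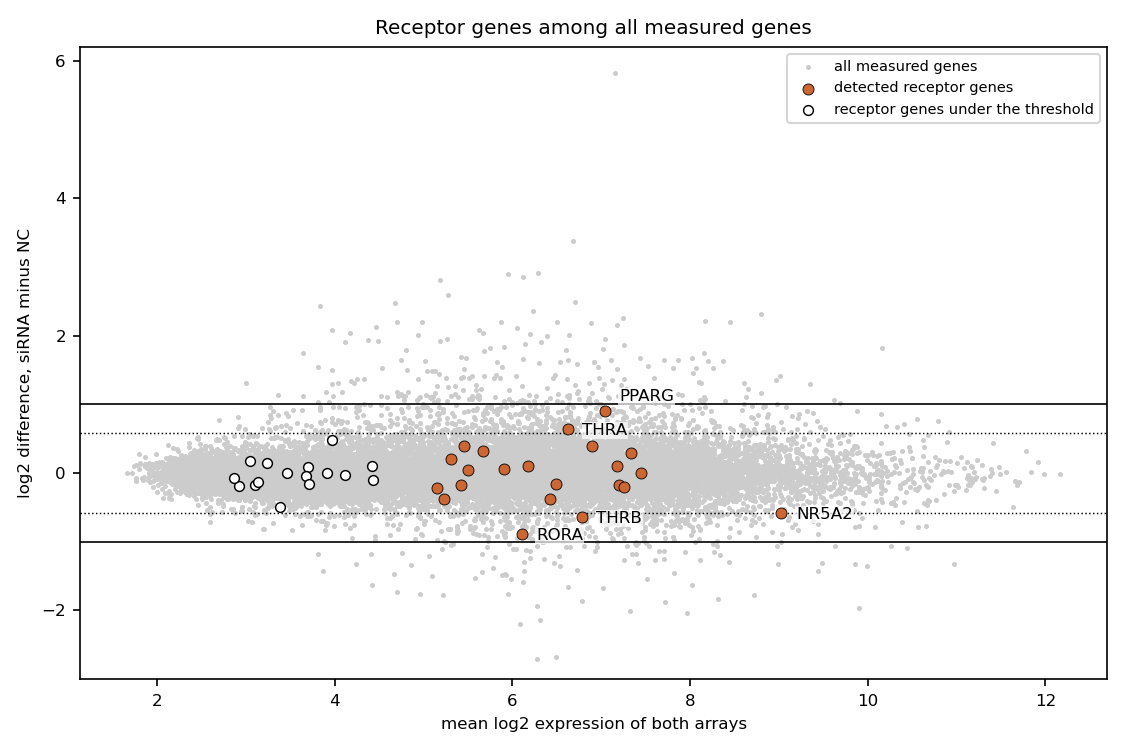
Log2 difference, siRNA minus NC (vertical axis), against the mean log2 expression of both arrays (horizontal axis) for all 18417 measured genes (grey), with detected receptor genes filled and those under the threshold open. Solid lines mark 2-fold and dotted lines 1.5-fold, and the detected receptors stay between -0.88 (RORA) and 0.90 (PPARG).

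The NR4A receptors, which growth and stress signals induce within the hour and which act without a classical ligand, split as well. NR4A1 (NUR77) had 5.26 with NC and 5.04 with the siRNA, a difference of -0.22. NR4A2 (NURR1) had 5.27 and 5.65, a difference of 0.39. NR4A3 (NOR1) lay under the threshold with 3.80 and 3.63. The difference of NR4A2 exceeded that of NR4A1 by 0.61.

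Of the NR2 orphan receptors, NR2F1 (COUP-TFI, mostly a repressor) had 6.69 with NC and 7.09 with the siRNA, a difference of 0.39. Its relative NR2F6 (EAR2) had 7.12 and 7.23, a difference of 0.10. The testicular receptors NR2C1 (TR2) and NR2C2 (TR4) had differences of -0.20 (7.36 and 7.16) and 0.00 (7.45 in both arrays after rounding). NR2E1 (TLX, a neural stem cell factor) had 3.63 and 3.14, and NR2E3 (a photoreceptor factor) 4.48 and 4.38, all under the threshold. NR2E1 and RARB had the largest differences among the 16 receptors under the threshold, -0.49 and 0.49, and the median absolute difference of these 16 was 0.11. HNF4G, a receptor outside the list of 44, was 1.65-fold lower (7.14 against 6.43).

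Of 19 coactivators, 17 were detected, with a median of -0.02. None differed by 2-fold (2.8% of all detected genes did) and 2 differed by 1.5-fold (9.77% of all detected genes did). NCOA7 was 1.79-fold higher (6.70 against 7.54) and NCOA4, which also delivers ferritin for degradation, 1.67-fold lower (9.55 against 8.81). PPRC1 and TRIP4 had differences of 0.38 and 0.22. Of 12 corepressors, 10 were measured and detected, with 8 higher, 2 lower and a median of 0.09, and none reached 1.5-fold. Over all detected genes, 49.9% were higher, 48.1% were lower and 9.77% differed by 1.5-fold. The histone deacetylase HDAC1 had a difference of 0.48 and TBL1X, a subunit of the NCOR complex, -0.40. Chaperones that fold steroid receptors had a median of 0.07 over 9 detected genes, none at 1.5-fold, with CDC37 at 0.51 and FKBP4 at 0.38.

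Enzymes and carriers that make or remove receptor ligands were measured for 29 of 34 listed genes and detected for 12, with 7 lower, 5 higher and a median of -0.10. HSD17B2, which inactivates estradiol and testosterone, was 4.11-fold lower (8.99 against 6.95) and was the 1 member at 2-fold. CYP27A1, which makes a hydroxylated cholesterol on the way to bile acids, was at least 1.59-fold lower. CYP7A1, the rate-limiting enzyme of bile acid synthesis, lay under the threshold with 2.99 and 2.80 and was named after its value was seen.

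**Figure D4:**
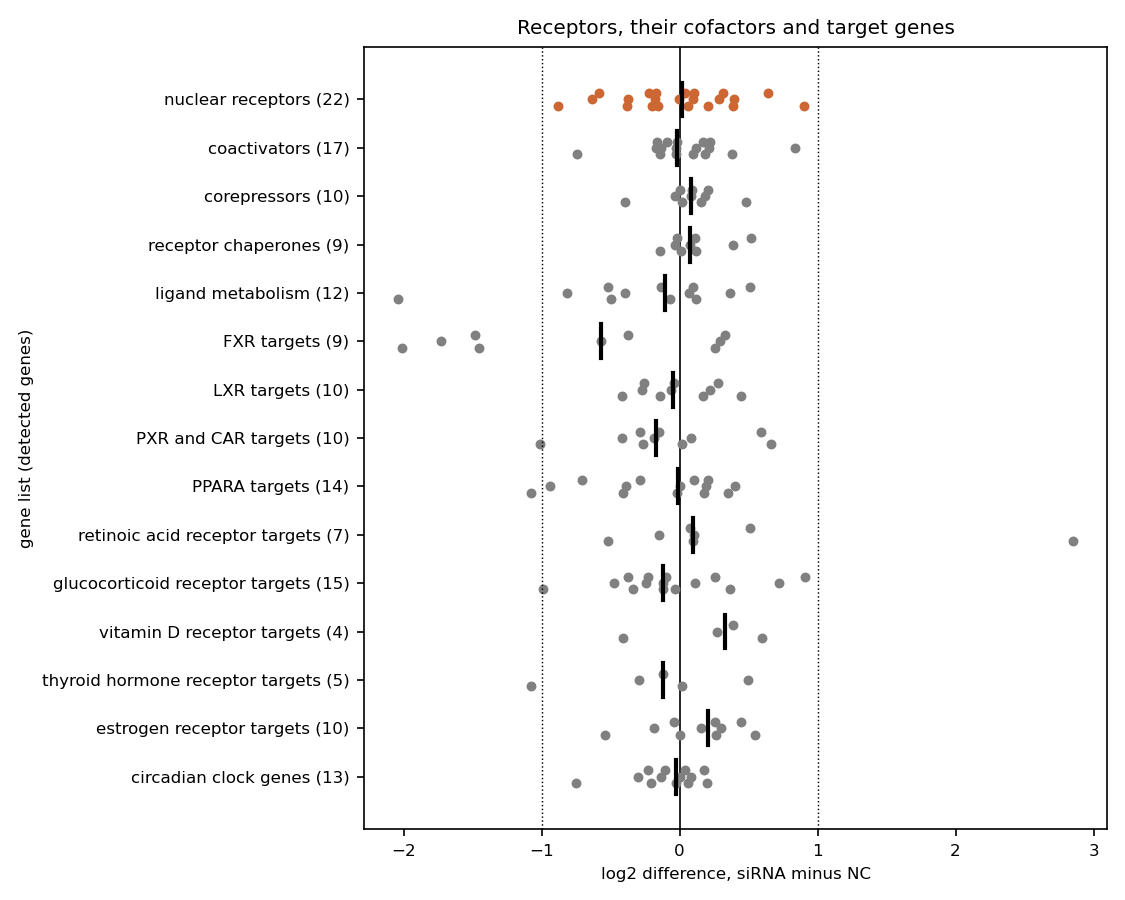
Log2 difference, siRNA minus NC (horizontal axis, 1 array per group), of each detected gene in the receptor list and in the lists of cofactors, ligand enzymes and targets (vertical axis, number of detected genes in parentheses), with list medians as black bars and 2-fold as dotted lines. The receptors center on 0.02. Of the lists shown, the FXR targets have the lowest median, -0.57 over detected genes and -0.11 over all measured. That list was drawn up with earlier results known, and the hepatocyte markers, not shown, have a median of -0.71.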

How the data were processed

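Total RNA of 2 Huh-7 cultures was extracted with TRIzol and labelled as biotinylated cRNA for Affymetrix arrays, per the labels' protocols. The submitters' processing notes name Affymetrix Expression Console and Transcriptome Analysis Console 3.0. Background correction and normalization are not given in the sources used here. The deposited values, 33297 probe sets per array, were taken as log2 expression from their range (1.39 to 12.7, medians 4.67 for NC and 4.64 for siRNA), since no label states the unit. The sorted columns differed by at most 0.10, so no further scaling was applied. Background signal can compress differences of dim genes.

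Gene names came from GEO's annotation of the platform: 19460 probe sets had 1 gene, 1754 several and 12083 none, and the latter 2 kinds stayed out. Symbols were updated by Entrez identifier against RefSeq (GRCh38.p14). Values under the threshold give folds as bounds ("at least"). Calculations used Python 3.11.15, pandas 2.3.3 and numpy 2.4.6, and the counting was tested on simulated data. With 1 array per group no test was run, and the number of arrays limits the precision.

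The receptors and gene lists were chosen with earlier results of these data known. Named were all receptors, up to 4 detected genes per list with the largest differences, listed genes at 2-fold, and others where the text says so. Also named outside that rule were PECAM1, VWF, PTPRC, COL3A1, FABP4, ADIPOQ, PDK4 and CCNE1. Alternatives covered the probe set choice, centring, quantile normalization, the detection threshold and the fold.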

Additional observations from a re-analysis of the deposited data

How the results depend on the processing

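No receptor reached 2-fold under another probe set choice, centring, quantile normalization or without a threshold. The stricter thresholds and raising low values could not add one, since they only drop genes or shrink differences. With a fold of at least 1.5 in place of 2, 2 receptors were lower and 2 higher, and 424 of all detected genes were lower and 685 higher. With the threshold at the 75th percentile, 13 receptors were left, their median difference was -0.16 and 137 genes of all were at least 2-fold higher, fewer genes being counted. Of 167 recomputed differences of detected receptors, none moved by more than 0.09, the median range between probe sets of a gene. Most of them could not move. A threshold or leaving out ties alters no gene's value, and no detected receptor had a low value to raise. Averaging probe sets could alter RXRB alone, and centring shifts every gene alike. This leaves quantile normalization as the main check. Centring turned the sign of NR2C2 alone, giving 10 receptors lower and 12 higher. Of the 252 recomputed list medians, 31 moved by more than 0.09, 14 of them with the threshold at the 75th percentile and 14 without a threshold. Leaving out exact ties, chosen after seeing the data, could move no count, since a tie lies past no fold. No paired analysis was possible because each group has 1 array. With 1 array per group the spread between cultures is unknown.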

Other observations

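Lists of targets for PPARG and NR5A2 were added after the receptor values were seen and support nothing by themselves. Of 17 PPARG targets, 15 were measured and only 3 detected: PLIN1, a lipid droplet protein, with a difference of -0.26, ACSL1 with -0.41 and MGLL, a monoglyceride lipase, with 0.03. The fat cell genes FABP4 (2.08 with NC and 2.29 with the siRNA) and ADIPOQ (3.77 and 3.64) lay under the threshold in both arrays. PDK4, a kinase that limits pyruvate oxidation, also lay under it, with 3.36 and 4.32. Of 12 NR5A2 targets, all were measured and 5 detected, each with the lower value in the siRNA array: AFP (-1.97), CCND1 (-0.54), NR0B2 (-0.38), SCARB1, the receptor for high-density lipoprotein (-0.31), and CCNE1, cyclin E1 (-0.03). AFP was known to be lower before the list was written, and 48.1% of all detected genes had a lower value. NR0B2 is itself a member of the receptor list and is also counted among the FXR targets.

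Several receptor genes are neighbours in RefSeq. THRA and NR1D1 overlap on chromosome 17, and their differences were 0.64 and -0.38. The sources used here do not say where the probes of both genes lie relative to the overlap. NR1D2, THRB and RARB follow one another on chromosome 3 with no protein-coding gene between them, and their differences were -0.18, -0.64 and, under the threshold, 0.49. NR5A1 and NR6A1 are adjacent on chromosome 9.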
